A study of Rattus norvegicus with 10 samples.

Results

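The enzymes described are those that remove superoxide and peroxides, make and recycle glutathione, detoxify aldehydes and quinones, and attach glutathione, sulfate or glucuronic acid to foreign and endogenous compounds. Members were taken by name alone, as the genes of the deposited table whose symbols begin with Gst, Gpx, Prdx, Aldh, Akr, Ugt or Sult, together with Nqo1, Gclc, Gclm, Gsr, Txnrd1, Cat, Sod1, Sod2 and Sod3. Srxn1, also on the list of full names, is not analysed here. This gave 101 of the 22250 genes in the table, of which 65 passed a filter on low counts and could be tested. The members split into 24 Gst, 18 Aldh, 17 Akr, 12 Sult, 8 Gpx, 7 Ugt and 6 Prdx genes and the 9 given by full name.

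Messenger RNA was measured by sequencing in 10 rat lung libraries, 5 named XBS and 5 named MOD. According to the series' design text, rats were given neutrophilic asthma by ovalbumin, an allergen from egg white, together with the bacterial endotoxin lipopolysaccharide, and a formula called SP was administered. The labels expand neither XBS nor MOD, tie neither to SP and give no strain, age, sex, dose or time, so the groups keep their names here; a group without induced disease is not analysed here. The labels also name a human bronchial cell line, whereas the table has rat gene identifiers and holds markers of whole lung in every library, with summed levels of 17530 to 35170 CPM for alveolar type 2 and 2701 to 5437 CPM for endothelial genes. Total counts were 11998979 to 15518929 per library, and 3 counts corresponded to 0.19 to 0.247 CPM, counting error only. CPM is the count scaled to the library's total, after adjustment of that total by trimmed means (TMM). Nothing says that each library is its own animal, so p-values measure only how these libraries scatter, and that scatter may be technical.

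Glutathione is a small thiol that cells use to reduce peroxides and to tag reactive compounds for export. Glutamate-cysteine ligase makes its precursor, glutathione peroxidases spend it, glutathione reductase restores it and glutathione transferases attach it to electrophiles. Many of these genes can be induced by the transcription factor NRF2, which binds antioxidant response elements, and the lung, exposed to oxygen and inhaled chemicals, is known for expressing them in airway and alveolar epithelium.

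The core of the antioxidant response element, TGACNNNGC on either strand, was searched in the 300 bases from 250 before to 50 after the gene start in RefSeq promoters (build GRCr8). Of the 101 members, 83 were matched to a promoter by gene ID or symbol, and 17 of these (20.5%) held the core. So did 15 of the 55 matched members that were tested (27.3%) and 4038 of all 33469 RefSeq promoters (12.1%). The RefSeq promoters were not limited to genes tested here, and no share over the promoters of tested genes was computed. The stretches below are shown because they belong to members picked by level, p or full name whose core lies wholly upstream of the gene start, and they let the element be compared between a dismutase, a ligase subunit, a peroxidase, a transferase, a peroxiredoxin and an aldo-keto reductase. Each reads 5′ to 3′ on the strand that carries the core, which is in capitals, with up to 20 bases on either side.
Akr1c15 chr17:71117998-71118046 (- strand): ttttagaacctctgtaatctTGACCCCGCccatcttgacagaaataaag
Akr1c15 chr17:71118069-71118117 (+ strand): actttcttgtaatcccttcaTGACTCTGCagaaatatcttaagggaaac
Sod2 chr1:50050175-50050223 (+ strand): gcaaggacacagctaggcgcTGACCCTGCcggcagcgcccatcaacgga
Gclm chr2:213031943-213031991 (- strand): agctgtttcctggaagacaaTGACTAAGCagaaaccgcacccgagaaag
Gpx2 chr6:101230034-101230066 (+ strand): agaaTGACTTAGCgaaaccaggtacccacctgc
Gstp1 chr1:210769738-210769786 (- strand): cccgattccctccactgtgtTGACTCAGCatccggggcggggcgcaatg
Prdx1 chr5:135383751-135383799 (- strand): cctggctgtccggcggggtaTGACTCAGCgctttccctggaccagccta
The cores of Gstp1 and Prdx1 were the same in all their letters, while the other 5 differed from these and from one another at the unspecified bases. Akr1c15 held 2 cores, starting 69 and 140 bases before the gene start. The match is a description of letters and not of binding. The 15 tested members with a core had log2 fold changes, XBS over MOD, from -0.28 to 0.25 with a median of -0.05, with 6 higher and 9 lower. The 40 without one ran from -0.33 to 0.60 with a median of 0.03, with 21 higher and 19 lower.

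Levels differed widely between the enzymes, and some of those that remove peroxides or reduce aldehydes were the highest. Compared per gene length, in CPM per kilobase, Gpx3, the secreted glutathione peroxidase of plasma, averaged 629 ± 114 in XBS and 679 ± 77.1 in MOD (SD, n = 5 each). Gpx1, the selenium enzyme of the cytosol, averaged 556 ± 73.0 in XBS and 472 ± 35.6 in MOD on the same scale, and Akr1a1, an aldehyde reductase, 450.5 ± 24.3 in XBS and 439 ± 18.9 in MOD. Next in the order over all 10 libraries came Prdx6 (385 CPM per kilobase), Akr1c15 (329), Aldh2 (260.2), Sod1 (257), Aldh1a1 (228), Prdx1 (209.9) and Prdx5 (186). Some neighbours in this order, such as Aldh2 and Sod1, differed by less than the spread between libraries, so their order is not resolved. Each of the 10 stood above at least 97.6% of all genes tested. The transferases were led by Gstp1 (119 CPM per kilobase), Gstm1 (95.5) and Gstm7 (84.9), and the sulfotransferases by Sult1a1 (117) with Sult5a1 (4.60) and Sult2b1 (0.618) far below. Per gene length, the Ugt genes were low, with Ugt1a6 at 4.19 CPM per kilobase, Ugt8 at 0.291 and Ugt2a3, too low to test, at 0.0325. The Ugt1a6 row is 9345 bases long and held 5521 counts over all 10 libraries, so its level per kilobase depends on that length. Whether all its reads come from Ugt1a6 was not tested.

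**Figure D1:**
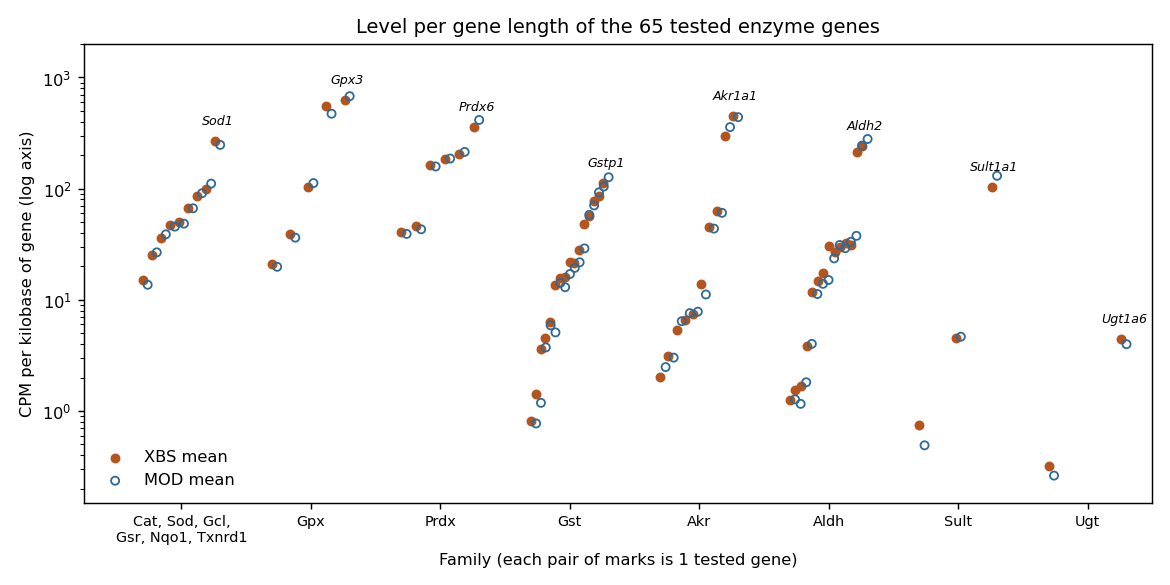
Mean level of each of the 65 tested enzyme genes in CPM per kilobase of gene (log axis), by family; filled marks are XBS means and open marks MOD means over 5 libraries each. The marks of a pair lie close together across a range from below 1 (Ugt8) to above 600 CPM per kilobase (Gpx3).

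The other 36 members were too low to test. Of these, 9 had 0 counts in every library, namely Akr1c1, Akr1c2, Gpx5, Gsta2, Gsta5, Gstm6l, Sult2a1, Ugt2b15 and Ugt3a2. Low and high members lay side by side in the genome. The Akr1c cluster on chromosome 17, spanning 69365453 to 69862110 (coordinates as deposited, on a rat build that the sources used here do not name), held 10 members with Akr1e2 at its edge, of which 5 were tested and levels ran from 0 to 329 CPM per kilobase. In the Gstm cluster on chromosome 2, from 210685197 to 210839295, 3 of 7 members were tested and the highest, Gstm1, had 95.5 CPM per kilobase. The 7 sulfo- and glucuronosyltransferase genes between 22072024 and 22825444 on chromosome 14 reached at most 0.13 CPM per kilobase. Members of these clusters are close in sequence, so that counting may have split reads among them, and values within a cluster are uncertain for that reason.

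No enzyme gene of the set passed the threshold between XBS and MOD. The comparison asked which of these enzymes differed between the groups, and edgeR's quasi-likelihood test over all 14320 tested genes gave 0 members higher and 0 lower at an adjusted p under 0.05, beside 0.0768% of all genes (11 genes) called in either direction, 0.0279% higher and 0.0489% lower. At an adjusted p under 0.1 it gave 0 members too, beside 0.468% of all genes. DESeq2 called 1 of the 68 members to which it gave an adjusted p, Sult1a1, beside 2.23% of all genes, and limma voom called 0 of 65, beside 0.461% of all genes. The share called by DESeq2 was no larger among the members than over all genes. At an unadjusted p under 0.05, edgeR gave 10 of the 65 members, 4 higher and 6 lower in XBS, where 13.2% of all genes met the same limit, 7.4% higher and 5.78% lower, so the members' count was near the background. In 1 member, Aldh9a1, the groups did not overlap, with XBS below, beside 2.74% of all genes, 1.61% with XBS above and 1.13% with XBS below. A negative fold change was given by 34 of the 65 members, beside 48.1% of all genes. Log2 fold changes ran from -0.36 to 0.60 with a median of -0.02, against a median of 0.01 over all genes tested, and 43 of 65 members lay within 0.2 of 0 on the log2 scale, as did 62.9% of all genes.

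**Figure D2:**
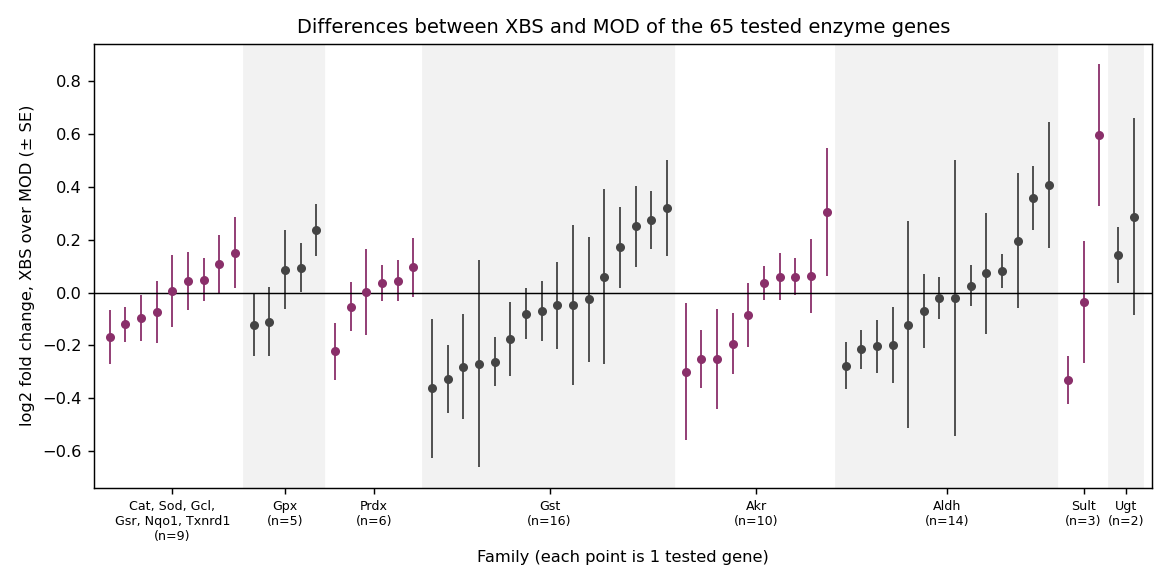
Log2 fold change of XBS over MOD (vertical axis, bars are SE) of each of the 65 tested enzyme genes, ordered within families. Points of most families lie on both sides of 0, from -0.36 to 0.60, and none passed the threshold in edgeR.

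None of the 3 superoxide dismutases passed the test, nor did catalase. Sod1, the copper-zinc enzyme of the cytosol, had 141, 188, 201, 179 and 164 CPM in XBS 1 to 5, against 142, 192, 157, 172 and 148 CPM in MOD 1 to 5, and its log2 fold change was 0.11 ± 0.11 (SE). Sod2, the manganese enzyme of mitochondria, had 167, 146, 173, 201 and 190.0 CPM in XBS 1 to 5, against 176, 180.3, 182, 201 and 199 CPM in MOD 1 to 5, with a log2 fold change of -0.10 ± 0.09. XBS 1 was the lowest and XBS 3 the highest of all 10 libraries for Sod1, XBS 2 was the lowest for Sod2, and the groups overlapped for both. Sod3, the extracellular dismutase, ranged from 90.0 to 144 CPM in XBS, and from 101 to 132 CPM in MOD, and its log2 fold change was 0.01 ± 0.14, with both the lowest and the highest library in XBS. Cat, the catalase of peroxisomes, averaged 251 ± 34.4 CPM in XBS and 282 ± 25.6 CPM in MOD (SD, n = 5 each; log2 fold change -0.17 ± 0.10), with XBS 2 and XBS 5 below the MOD range and the other 3 XBS libraries inside it. Adjusted p by edgeR was 0.686 for Sod1, 0.642 for Sod2, 0.988 for Sod3 and 0.483 for Cat. Without XBS 2 and XBS 3 the sign of Sod1 turned (-0.01). These were the highest XBS libraries for Sod1, so leaving them out was bound to lower its XBS level.

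Of the 5 tested glutathione peroxidases 3 were higher and 2 lower in XBS, and 0 passed. Gpx1 had 506, 516, 564, 429.9 and 411 CPM in XBS 1 to 5, against 413, 399.9, 368, 428 and 451 CPM in MOD 1 to 5. XBS 1, XBS 2 and XBS 3 stood above every MOD library and XBS 4 and XBS 5 within the MOD range, and the gene was 1.18-fold higher in XBS (log2 fold change 0.24 ± 0.10, edgeR adjusted p = 0.349). Without XBS 2 and XBS 3 its log2 fold change was 0.12. These were the highest XBS libraries for Gpx1, so leaving them out was bound to lower its XBS level. Gpx3 had 987, 1166, 903, 717 and 842 CPM in XBS 1 to 5, against 1003, 1122, 973, 1060 and 821 CPM in MOD 1 to 5, and its log2 fold change was -0.11 ± 0.13 (adjusted p = 0.730 by edgeR). XBS held both the highest and the lowest library for this gene. Gpx2, an epithelial member best known from the gut, averaged 104 ± 6.94 CPM in XBS and 113 ± 20.3 CPM in MOD (SD, n = 5 each), and Gpx7 and Gpx8, which work in the endoplasmic reticulum, had log2 fold changes of 0.09 and 0.09. The row named Gpx4, the lipid peroxidase that guards against ferroptosis, held 69 counts over all 10 libraries and was not tested. Whether reads of this gene were counted in another row was not tested, so the count is not given as its level in lung.

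Peroxiredoxins, which reduce peroxides through a reactive cysteine, gave 4 higher and 2 lower among 6 tested members. Prdx6, a peroxiredoxin of lung epithelium that also has phospholipase activity, had 682, 744, 724, 776 and 680.4 CPM in XBS 1 to 5, against 984, 716, 727, 796 and 986 CPM in MOD 1 to 5. MOD 1 and MOD 5 stood apart at the top while the other 3 MOD libraries lay near or within the XBS range, and Prdx6 was 1.17-fold lower in XBS (log2 fold change -0.22 ± 0.11, edgeR adjusted p = 0.403). The cytosolic Prdx1 and Prdx2 had log2 fold changes of -0.05 and 0.04, the mitochondrial Prdx3 0.05 and the endoplasmic reticulum form Prdx4 0.10. Prdx5 averaged 152 ± 29.2 CPM in XBS and 152 ± 33.9 CPM in MOD (SD, n = 5 each). Its sign turned in several alternatives. Txnrd1, the reductase that keeps thioredoxin and through it peroxiredoxins active, had 122, 108, 124, 128 and 131 CPM in XBS 1 to 5, against 128, 126, 143, 138 and 132 CPM in MOD 1 to 5. Its groups overlapped (log2 fold change -0.12 ± 0.07, edgeR adjusted p = 0.452).

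The enzymes that make and recycle glutathione did not pass either. Gclc, the catalytic subunit of glutamate-cysteine ligase, had 45.1, 36.4, 38.4, 48.6 and 62.4 CPM in XBS 1 to 5, against 43.9, 39.3, 40.0, 44.8 and 40.1 CPM in MOD 1 to 5. Both the lowest and the highest library were XBS, and its coefficient of variation was 22.4% in XBS and 6.10% in MOD. Gclm, the modifier subunit, ranged from 30.4 to 46.9 CPM in XBS, and from 36.9 to 44.3 CPM in MOD, with XBS 2 lowest and XBS 5 highest of all 10, as for Gclc. Log2 fold changes were 0.15 ± 0.13 for Gclc and -0.07 ± 0.12 for Gclm (SE; edgeR adjusted p = 0.636 and 0.813), and that of Gclm was 0.05 without XBS 2 and XBS 3. Gsr, which returns oxidised glutathione to its reduced form, averaged 99.7 ± 9.52 CPM in XBS and 96.4 ± 7.68 CPM in MOD (SD, n = 5 each). Nqo1, a quinone reductase often read as a marker of NRF2 activity, had 77.2, 60.1, 76.4, 86.3 and 70.9 CPM in XBS 1 to 5, against 80.9, 63.7, 74.4, 61.7 and 78.9 CPM in MOD 1 to 5. XBS 4 was highest and XBS 2 lowest, and the log2 fold change was 0.04 ± 0.11 (edgeR adjusted p = 0.880).

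Glutathione transferases had 5 members higher and 11 lower in XBS among 16 tested, and 0 passed. Gstm7, a mu class transferase, had 141, 134, 149.6, 164 and 181 CPM in XBS 1 to 5, against 178, 184, 199.5, 197 and 163 CPM in MOD 1 to 5. Its row encloses those of Gstm6 and Gstm3l on the same strand, so reads among these rows cannot be told apart. XBS 1, XBS 2 and XBS 3 lay below every MOD library, while XBS 4 and XBS 5 were above MOD 5, the lowest MOD library (log2 fold change -0.26 ± 0.09, edgeR adjusted p = 0.287). Gsta4, an alpha class enzyme that clears the lipid aldehyde 4-hydroxynonenal, had 50.7, 65.2, 70.8, 51.9 and 45.7 CPM in XBS 1 to 5, against 61.7, 81.1, 68.8, 66.8 and 78.3 CPM in MOD 1 to 5. XBS 1, XBS 4 and XBS 5 lay below every MOD library and XBS 2 and XBS 3 within their range. The log2 fold change of -0.33 ± 0.13 (adjusted p = 0.323, edgeR) was -0.53 without XBS 2 and XBS 3. These were the highest XBS libraries for Gsta4, so leaving them out was bound to lower its XBS level. Gsto1, an omega class thiol transferase, ranged from 15.0 to 19.5 CPM in XBS, and from 12.4 to 16.1 CPM in MOD and was 1.21-fold higher in XBS (adjusted p = 0.335, edgeR). The rows of Gsto1 and Gsto2 overlap on the same strand, so reads between them cannot be told apart. Gstp1, the pi class enzyme of airway epithelium, averaged 86.2 ± 14.6 CPM in XBS and 97.4 ± 16.7 CPM in MOD (SD, n = 5 each; log2 fold change -0.18 ± 0.14). The lowest log2 fold change of the 65 was that of Gstt2, of the theta class, at -0.36 ± 0.26 (SE, edgeR adjusted p = 0.554), ranging from 4.59 to 7.68 CPM in XBS, and from 4.69 to 12.4 CPM in MOD.

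Aldehyde dehydrogenases showed the one pair of groups that did not overlap. Aldh9a1 (ENSRNOG00000004027, chromosome 13 from 85580828 to 85597493), which acts in carnitine synthesis, had 72.7, 58.2, 78.0, 83.8 and 70.3 CPM in XBS 1 to 5, against 85.2, 85.1, 94.2, 86.9 and 88.2 CPM in MOD 1 to 5. The highest XBS library, XBS 4, stood just under the lowest MOD library, MOD 2, and the gene was 1.21-fold lower in XBS (log2 fold change -0.28 ± 0.09, edgeR adjusted p = 0.246). Aldh2, the mitochondrial enzyme that oxidises acetaldehyde, had 468, 393, 456, 494 and 448 CPM in XBS 1 to 5, against 491, 509, 540.2, 551 and 530.4 CPM in MOD 1 to 5. XBS 4 overlapped with MOD 1, and the gene was 1.16-fold lower in XBS (log2 fold change -0.21 ± 0.07, adjusted p = 0.278 by edgeR). Of the enzymes that make retinoic acid from retinal, Aldh1a3 had 83.8, 109, 93.8, 97.3 and 128 CPM in XBS 1 to 5, against 67.2, 92.6, 80.4, 86.8 and 72.2 CPM in MOD 1 to 5. XBS 2 to XBS 5 stood above every MOD library and XBS 1 within the MOD range, and the gene was 1.28-fold higher in XBS (log2 fold change 0.36 ± 0.12, edgeR adjusted p = 0.268). Aldh1a2 had a log2 fold change of 0.20 ± 0.26 and Aldh1a1 one of -0.20 ± 0.14 (SE). Over the family 6 of 14 tested members were higher and 8 lower, and 0 passed. In bulk lung, fewer cells of a type and less RNA per cell cannot be told apart.

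Aldo-keto reductases gave 5 higher and 5 lower among 10 tested members. Akr1c15, which belongs to the hydroxysteroid dehydrogenase branch, had 349.8, 398, 439, 424 and 384 CPM in XBS 1 to 5, against 369, 545, 472, 535 and 452 CPM in MOD 1 to 5. All 5 XBS libraries lay below 4 of the MOD libraries, while MOD 1 lay among them, and the log2 fold change was -0.25 ± 0.11 (edgeR adjusted p = 0.365). Akr1a1 ranged from 532 to 609 CPM in XBS, and from 521 to 576 CPM in MOD and the aldose reductase gene Akr1b1 from 78.8 to 89.6 CPM in XBS, and from 74.8 to 87.7 CPM in MOD, with coefficients of variation of 5.39% in XBS and 4.30% in MOD for Akr1a1 and 5.94% in XBS and 7.43% in MOD for Akr1b1. Akr7a2, an aflatoxin aldehyde reductase, averaged 9.69 ± 0.902 CPM in XBS and 11.1 ± 1.03 CPM in MOD (SD, n = 5 each; log2 fold change -0.19 ± 0.12).

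The smallest p of the whole set belonged to a sulfotransferase. Sult1a1 (ENSRNOG00000019342, chromosome 1 from 198100586 to 198104109), which sulfates phenols, had 122, 124, 154, 128 and 106 CPM in XBS 1 to 5, against 165, 162, 168, 154 and 148 CPM in MOD 1 to 5. XBS 3 alone reached the MOD range, just above MOD 4 and MOD 5, and Sult1a1 was 1.26-fold lower in XBS (log2 fold change -0.33 ± 0.09, edgeR adjusted p = 0.189). DESeq2 gave an adjusted p of 0.0389 for the same difference, and over the other alternatives it ran from 0.0947 to 0.42. Sult2b1, a sulfotransferase of cholesterol and hydroxysteroids, had 2.22, 2.07, 1.82, 2.02 and 2.08 CPM in XBS 1 to 5, against 2.15, 0.793, 1.39, 1.06 and 1.35 CPM in MOD 1 to 5. MOD 1 was as high as the XBS libraries and the other 4 MOD libraries were lower, and the gene, with 11 to 32 counts a library, was 1.51-fold higher in XBS (adjusted p = 0.376, edgeR). Sult5a1 had a log2 fold change of -0.03 ± 0.23. Ugt1a6, which glucuronidates phenols, averaged 41.1 ± 2.74 CPM in XBS and 37.3 ± 5.80 CPM in MOD (SD, n = 5 each; log2 fold change 0.14 ± 0.11), and Ugt8, which adds galactose to ceramide, 1.14 ± 0.539 CPM in XBS and 0.935 ± 0.287 CPM in MOD.

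**Figure D3:**
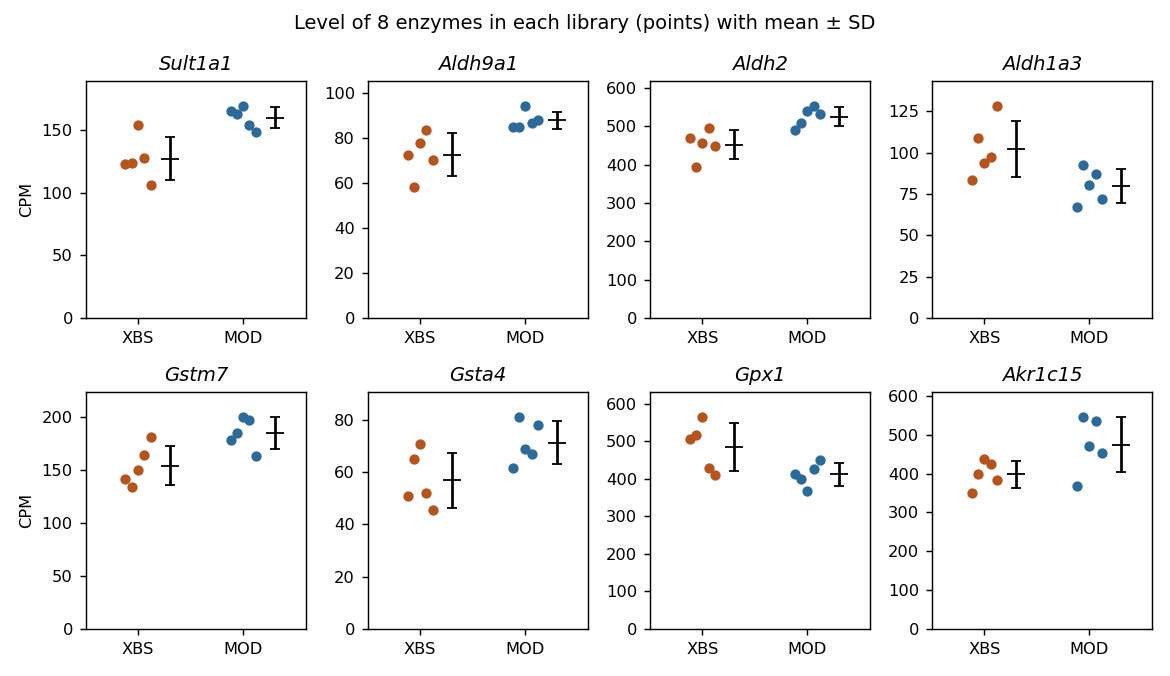
CPM of 8 enzyme genes in each of the 5 XBS and 5 MOD libraries (points), with mean ± SD beside them; axes start at 0. Aldh9a1 has groups that do not touch, from 58.2 to 83.8 CPM in XBS, against 85.1 to 94.2 CPM in MOD, and the other 7 overlap.

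Libraries within XBS differed more than the groups did for several members. The 14 club cell markers summed to 2314 and 2559 CPM in XBS 2 and XBS 3. Their sums were 7786 to 9165 CPM in XBS 1, XBS 4 and XBS 5 and 8451 to 12150 CPM in MOD. Single markers need not follow the sum. The log2 fold change of Cyp4b1, among the 14, was -0.66 over all libraries and -0.63 without XBS 2 and XBS 3. The ciliated cell markers summed to 382.7 and 385.7 CPM in XBS 2 and XBS 3, 674 to 1149 CPM in the other XBS libraries and 745.3 to 932.2 CPM in MOD. In these 2 libraries 9 of the 65 tested members (13.85%, against 7.57% of all genes tested) were lower than in each of the other 8, namely Gstm1, Gstp1, Gsta1, Gsta3, Aldh1a1, Aldh3b1, Akr7a3, Gclc and Ugt8, and 6 (9.23%, against 4.54%) were higher, namely Gpx1, Gsto1, Prdx3, Akr1a1, Akr1c14 and Aldh1l1. These counts are descriptions over libraries singled out by their marker genes, and the part of the markers in them was not tested.

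Gstm1, a mu class transferase, had 67.6, 46.5, 40.1, 160.5 and 168 CPM in XBS 1 to 5, against 116, 81.0, 132, 127 and 127 CPM in MOD 1 to 5. XBS 1 to XBS 3 lay below every MOD library and XBS 4 and XBS 5 above every one, so that the coefficient of variation was 65.0% in XBS and 17.8% in MOD. Its log2 fold change of -0.27 ± 0.39 (SE) was 0.18 without XBS 2 and XBS 3. Aldh1a1 had 508, 376, 353, 587 and 519.8 CPM in XBS 1 to 5, against 600.1, 497, 537, 593 and 459.7 CPM in MOD 1 to 5. XBS 2 and XBS 3 were the lowest, and without them its log2 fold change of -0.20 was 0.0021. Because XBS 2 and XBS 3 were lowest for Gstm1 too, leaving them out was bound to raise the XBS levels of Gstm1 and Aldh1a1. Gsta1, an alpha class transferase whose row encloses that of Gsta3 on the other strand, had 73.9, 59.5, 52.5, 70.7 and 90.8 CPM in XBS 1 to 5, against 109, 65.1, 109.6, 78.4 and 59.9 CPM in MOD 1 to 5, and here MOD 5 and MOD 2 were nearly as low as XBS 2. Aldh3b1 ranged from 16.1 to 38.1 CPM in XBS, and from 18.3 to 28.3 CPM in MOD, with XBS 2 and XBS 3 lowest and XBS 5 highest. Across all 65 members the coefficient of variation was larger in XBS for 47 (72.3%), as it was for 63.5% of all genes tested, with medians of 13.6% in XBS and 11.4% in MOD.

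**Figure D4:**
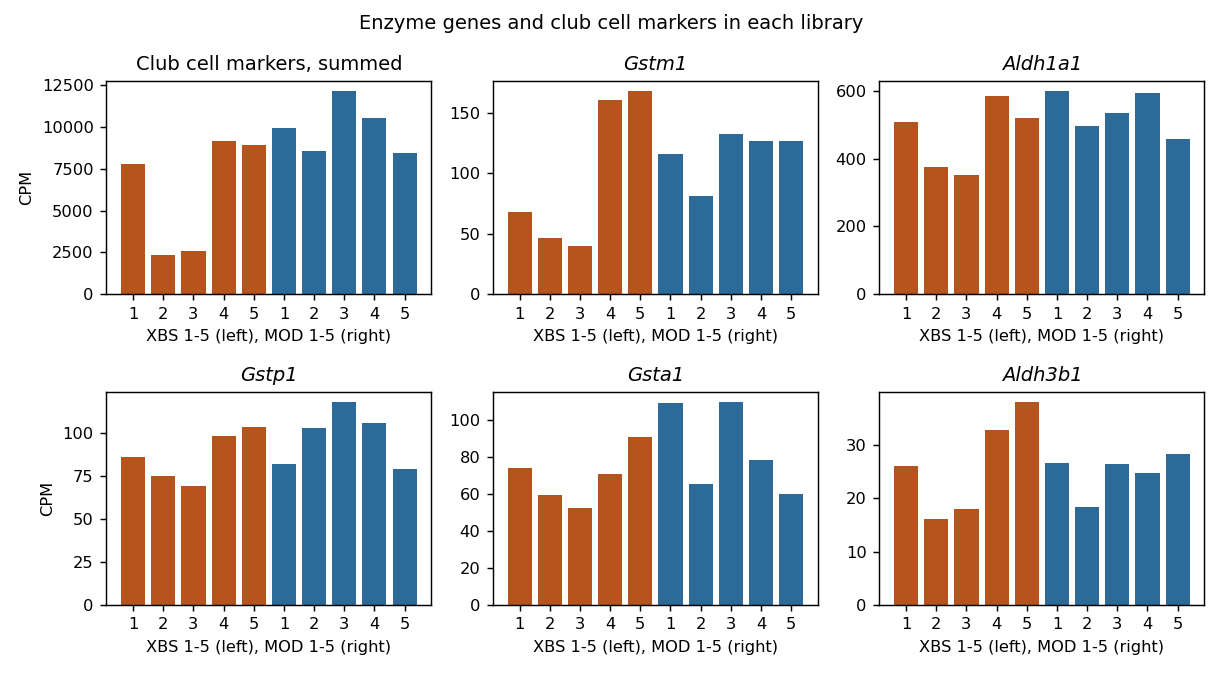
Summed CPM of the club cell markers (first panel) and CPM of 5 enzyme genes in each library; bars are single libraries, XBS 1 to 5 on the left and MOD 1 to 5 on the right of each panel. XBS 2 and XBS 3 are the lowest bars in every panel, and Gstm1 ranges from 40.1 to 168 CPM within XBS.

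Summed over all 101 members, levels per gene length were 5107 to 5354 CPM per kilobase in XBS and 5367 to 5622 CPM per kilobase in MOD, with means of 5219 ± 97.0 in XBS and 5456 ± 107 in MOD (SD, n = 5 each). The highest XBS library stood just under the lowest MOD library. This is a description of chosen members and carries no test, and sums over other genes were not compared. Gene by gene, 34 of the 65 tested members were lower in XBS, 31 were higher and 0 passed. The sum rests on a few abundant genes. Summed Gst levels averaged 514 ± 93.4 CPM per kilobase in XBS and 584 ± 44.6 in MOD, Aldh levels 657 ± 65.7 in XBS and 727 ± 30.8 in MOD, and Gpx levels 1348 ± 165 in XBS and 1319 ± 76.6 in MOD (SD, n = 5 each). Prdx levels averaged 996.5 in XBS and 1055 in MOD, Akr levels 898.3 and 939.9, and Sult levels 110.2 and 136.4. The members given by full name averaged 690.4 in XBS and 689.1 in MOD, and Ugt levels 4.763 and 4.329.

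Other genes of the pathway, taken from lists drawn up for the pathway, gave no call either. Among the 11 tested genes that control NRF2 signalling 0 rose and 0 fell, with 2 higher and 9 lower and a median log2 fold change of -0.21. Its 2 members of smallest p encode small MAF proteins, the DNA-binding partners of NRF2. Maff had 18.2, 29.2, 18.8, 21.0 and 30.4 CPM in XBS 1 to 5, against 31.7, 36.4, 39.1, 56.7 and 28.7 CPM in MOD 1 to 5. XBS 2 and XBS 5 exceeded the lowest MOD library, MOD 5, and the other 3 XBS libraries lay below all MOD libraries, and Maff was 1.64-fold lower in XBS (edgeR adjusted p = 0.210), while Mafk averaged 90.7 ± 10.7 CPM in XBS and 113 ± 10.1 CPM in MOD (SD, n = 5 each; adjusted p = 0.209, edgeR). Of 23 tested NRF2 targets outside the set 13 were higher and 10 lower (median 0.06), with 0 called. The biliverdin reductase gene Blvrb had a log2 fold change of -0.18 ± 0.11 (SE; adjusted p = 0.474, edgeR).

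Thiol partners, supply and cofactor genes were mixed. The list of microsomal transferases, glutaredoxins and thioredoxin partners had 11 higher and 9 lower of 20 tested (median 0.03). In it Txnip, the inhibitor of thioredoxin, averaged 838 ± 82.5 CPM in XBS and 1091 ± 152 CPM in MOD (SD, n = 5 each; edgeR adjusted p = 0.209), and the glutaredoxin Glrx was 1.26-fold higher in XBS (adjusted p = 0.278, edgeR). Glutathione supply and transport had 9 higher and 5 lower of 14 tested (median 0.07), with Slc3a2, the heavy chain of the cystine transporter, 1.25-fold lower in XBS and Ggt7 1.53-fold higher in XBS. The list of cofactor supply for conjugation also held genes that do not supply a cofactor, among them Sts, Arsa and Gusb. Its 12 genes had 6 on either side (median 0.01). Sts, the steroid sulfatase, which removes sulfate, was 1.37-fold higher in XBS. Slc35b2, a carrier of the sulfate donor, had a log2 fold change of 0.17. Among selenoprotein genes 7 of 11 were higher (median 0.03), and Msrb1, a methionine sulfoxide reductase, and Selenot had log2 fold changes of 0.30 and -0.34. In each of these lists 0 genes passed the threshold by edgeR.

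Fmo2 and Fmo1, flavin monooxygenases that oxidise nitrogen and sulfur in drugs, had log2 fold changes beyond those of all 65 tested members, whose sizes ended at 0.60. Fmo2, the main form of lung, had 154, 166, 178, 166 and 229 CPM in XBS 1 to 5, against 312, 347, 289.7, 415 and 248 CPM in MOD 1 to 5. Every XBS library lay below every MOD library, and Fmo2 was 1.80-fold lower in XBS (log2 fold change -0.85 ± 0.14, edgeR adjusted p = 0.0833), which did not pass. Fmo1 averaged 125 ± 24.7 CPM in XBS and 199.9 ± 59.1 CPM in MOD (SD, n = 5 each; adjusted p = 0.237, edgeR). The list of other conjugating enzymes held 16 tested genes, 8 higher and 8 lower, of which 0 passed. In 2 of the 16, Fmo2 and the carboxylesterase gene Ces1d, every XBS library lay below every MOD library, beside 1.13% of all genes. Ces1d averaged 388 ± 85.3 CPM in XBS and 515 ± 30.5 CPM in MOD (SD, n = 5 each; adjusted p = 0.248, edgeR).

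Marker genes of lung cell types were compared beside the enzymes. All 12 tested alveolar type 1 markers and 8 of 9 endothelial markers were lower in XBS, with medians of -0.34 and -0.35 on the log2 scale. Their summed levels were 6323 to 9327 CPM in XBS, against 8940 to 10690 CPM in MOD, for alveolar type 1, and 2701 to 4080 CPM in XBS, against 3845 to 5437 CPM in MOD for endothelial cells. Of 13 tested neutrophil markers 12 were higher (median 0.42), with sums of 494.1 to 1097 CPM in XBS, against 447 to 680.1 CPM in MOD. Of the 11 macrophage markers 10 were higher (median 0.25), as were 11 of 12 lymphocyte markers (0.26), all 7 smooth muscle markers (0.35) and 5 of 8 fibroblast markers (0.17). All 3 red blood cell markers were lower (median -0.65), with sums of 829.5 to 1562 CPM in XBS, against 1096 to 3767 CPM in MOD. Red cells are known to be rich in the proteins catalase and peroxiredoxin 2, whose genes Cat and Prdx2 had log2 fold changes of -0.17 and 0.04. In each of these 8 lists 0 genes were called. Of the ciliated cell markers 2 were higher and 11 lower (median -0.22), and of the alveolar type 2 markers 3 were higher and 8 lower (median -0.01), with 0 called in either list. Of the 11 tested club cell markers 1 fell, Cyp4b1, a cytochrome P450 of airway epithelium, at 249.5 ± 25.7 CPM in XBS and 395 ± 11.2 CPM in MOD (SD, n = 5 each; log2 fold change -0.66 ± 0.08, edgeR adjusted p = 0.0104), beside 0.0489% of all genes called lower. That call was lost without XBS 2 and XBS 3 (adjusted p = 0.0715, edgeR), without MOD 4 and XBS 5 (adjusted p = 0.078, edgeR) and with the replicate block (adjusted p = 0.118, edgeR). The log2 fold changes of Cyp4b1 in these fits were -0.63, -0.64 and -0.67. DESeq2 (adjusted p = 7.63e-14) and limma voom (adjusted p = 0.00508) also called the gene, and edgeR called it with each single library left out. The part of these cell types in the values above was not tested. Markers of liver, an organ rich in the same enzymes, summed to 26.1 to 39.2 CPM in XBS, against 31.5 to 58.2 CPM in MOD, with 2 of the 8 in the table tested and 19 counts of Alb over all 10 libraries.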

How the data were processed

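Gene expression was measured in 10 rat lung libraries, grouped as XBS and MOD by their titles. Per the file headers, the authors deposited a read count and an FPKM value for each of 22250 genes; the counts were whole numbers and not normalized. The deposited FPKM could be rebuilt from count, length and total to within a relative 1.61e-08, so FPKM served only as an alternative for levels. The submitters' processing notes list human and mouse builds. The sources used here do not give the rat build, aligner, counter or strand handling, and reads of overlapping genes cannot be told apart.

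Low genes were removed by filterByExpr (at least 10 counts in enough libraries and 15 in total), which left 14320. TMM scaling and edgeR 4.0.16 under R 4.3.3 followed, with a robust quasi-likelihood fit of XBS over MOD. Benjamini-Hochberg adjustment ran over all tested genes, with a threshold of 0.05. Adjusted p-values of single genes are from edgeR unless another tool is named. The SE was derived from the fold change and its F statistic. No 2 libraries of a group matched within sampling noise: the lowest chi-square for a pair was 9.46 per degree of freedom.

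The members and lists were chosen with earlier results of these data known. Genes named are the members given by full name, those whose groups do not overlap, the 3 of highest level per length and the 2 of smallest p of each family, members with 0 counts throughout and the 2 of smallest p of each pathway list. Others (among them Gpx4, Gpx8, Gsto1, Gstt2, Gsta1, Prdx2, Prdx3, Ces1d, Cyp4b1, Aldh1a2, Aldh3b1 and the members named by XBS 2 and XBS 3) were chosen after their values were seen. One gene that the rule names is not reported here. The alternatives tried were DESeq2 1.42.0, limma 3.58.1 voom with sample weights, scaling by RLE or by upper quartile, all genes unfiltered, only genes with 1 CPM in 5 libraries, the replicate number as a block, a threshold of 0.1, leaving out each library, and leaving out XBS 2 and XBS 3 or MOD 4 and XBS 5.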

Additional observations from a re-analysis of the deposited data

Results flagged for a closer look

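Among 158 sets of 5 libraries checked for a library far from the other 4, covering each tested member and each named pathway gene in each group, 2 were picked out, where chance alone picks about 1 in 20. Gstt1, a theta class transferase, stood at 13.8 CPM in MOD 2, while the other MOD libraries had 16.4 to 17.2 CPM. Ugt8 stood at 1.43 CPM in MOD 1, against 0.732 to 0.921 CPM in the other MOD libraries.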

How the results depend on the processing

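The absence of calls among the enzymes held in edgeR under every scaling, filter, block and left-out library tried and at an adjusted p under 0.1; DESeq2 called 1 member, Sult1a1 (log2 fold change -0.34, adjusted p = 0.0389). Over all genes, the count of 11 became 329 by DESeq2, 66 by limma voom, 1 with the replicate block, 3 without XBS 2 and XBS 3, and 0 without MOD 4 and XBS 5 (edgeR, with 1340 genes at an unadjusted p under 0.05); the cause was not tested. Leaving out single libraries gave 4 to 15 genes, with 5, 4 and 4 without XBS 1, XBS 2 and XBS 3 and 5, 7 and 4 without MOD 2, MOD 3 and MOD 4. The members' median log2 fold change ran from -0.0867 (without XBS 5) to 0.0054 over the same runs.

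Of the 65 tested members 41 had one sign in every one of the 19 alternative fits that gave them a value. A value in all 19 was given for 64, and Ugt8 had none under the 1 CPM filter. Without XBS 2 and XBS 3, 50 of the 65 kept the sign of the edgeR fit of all libraries. The genes listed next are only some of those whose signs turned. Signs turned for Prdx5 (-0.0032 by DESeq2, -0.0013 with RLE scaling, -0.0114 with no filter, -0.0011 with the 1 CPM filter, -0.15 without XBS 2 and XBS 3), for Sod3 (-0.0082 with no filter, -0.0463 by voom, -0.0087 with the replicate block, -0.0498 without MOD 4 and XBS 5) and, without XBS 2 and XBS 3, for Sod1 (-0.0081), Gclm (0.0463), Akr1a1 (-0.014), Aldh1a1 (0.0021), Gstm1 (0.18) and Sult5a1 (0.0119). Over runs without a single library, log2 fold changes ran from -0.1133 to 0.1361 for Prdx5, -0.0867 to 0.0804 for Sod3, -0.1565 to 0.0884 for Sult5a1 and -0.0164 to 0.1111 for Nqo1. None of these genes passed in any of the fits. The labels do not say that replicate numbers pair the libraries, and same-numbered libraries had deviations correlated at -0.125 to 0.329, so they were not treated as paired; the replicate block gave 1 call over all genes, and 1 of 5 XBS libraries resembled the MOD library of its own number best.

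At 11998979 to 15518929 counts a library, genes near 3 counts could not be compared, and 36 members were not tested. Levels by deposited FPKM kept the 10 highest members. FPKM comes from the same counts and lengths, so this is not an independent check.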

Other observations

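The row named Gpx4 held 4, 12, 9, 10 and 1 counts in XBS 1 to 5 and 3, 7, 14, 5 and 4 counts in MOD 1 to 5. Whether its reads were counted in another row was not tested, and these counts are not read as the level of the gene. Sult1d1, a sulfotransferase of the chromosome 14 cluster and not tested, held 31 counts in XBS 5 and 12 in MOD 4, with at most 2 in each other library.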
